A study of Cricetulus griseus with 19 samples.

Results

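Casp2, Casp8, Casp9, Bax, Xiap and Pea15 are the caspases and apoptosis regulators that could be followed by name in this series of 19 RNA libraries from cultured hamster cells. They were taken as the transcript targets whose RefSeq accession belongs to these symbols of the Chinese hamster, and each symbol had 1 target, so 6 of 330 protein-coding symbols that matched a target are described. The cells are Paradaux, derived from CHO-K1, an ovary-derived line of the Chinese hamster that grows attached to the dish, and they carry a synthetic circuit for control of the cell population. The 4 culture conditions in the labels are the parental line (1 library), long-term culture with uncontrolled growth (4 cultures), negative feedback (7 cultures) and paradoxical feedback (7 cultures). All libraries hold polyadenylated RNA of cells harvested after 2 days of growth below 80% confluence, and the labels name no further agent, dose or duration. The labels do not say that numbered cultures were kept apart throughout, so each p-value reflects only how far these samples scatter, and that scatter may be technical in part.

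Apoptosis is run by caspases, proteases that are made as inactive precursors and cut their targets once activated. Initiator caspases are switched on in platforms: caspase-8 at death receptors of the cell surface, caspase-9 in the apoptosome that forms after mitochondria release cytochrome c, and caspase-2 in a complex that responds to DNA damage and to errors of cell division. Bax is one of the proteins that open the outer mitochondrial membrane. Xiap binds caspase-9 and the executioner caspases and blocks them, and Pea15 carries a death effector domain with which it keeps caspase-8 from being recruited. In the published design of this line, the signal is the plant hormone auxin, and the killing arm is an engineered caspase-9, which is separate from the hamster gene Casp9 described here. Since these caspases are made as inactive precursors and switched on as proteins in such platforms, RNA levels say nothing of their activity.

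Levels are given as CPM, the estimated counts of a target scaled to a common library size after TMM normalization, which evens out differences in composition. Library totals ran from 9911262 to 13157431 estimated counts. Counts of Casp2, Casp8, Bax, Xiap and Pea15 were whole numbers in all 19 libraries, within a tolerance of 1e-06, whereas reads of Casp9 were divided by the quantifier with similar transcripts, which adds an uncertainty the files do not show. Each value is that of a single transcript target and not of the whole gene, because most other transcripts matched no symbol. In bulk RNA, fewer expressing cells and less RNA per cell cannot be told apart.

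Libraries of 1 condition were not alike, and this bears on every result below. Targets shorter than 800 nt made up 12.2 to 13.4% of all counts under uncontrolled growth, 13.3 to 14.1% in negative feedback cultures 1 and 2, 6.12 to 7.22% in negative feedback cultures 3 to 7 and 8.50 to 12.4% under paradoxical feedback, with 11.8% in the parental library. Of 20 cell type markers only Pdgfra, a growth factor receptor of mesenchymal cells, matched a target, and it is named here after its values were seen. It lay between 0 and 2.09 CPM in the parental, uncontrolled and paradoxical feedback libraries, at 0.179 and 0.487 CPM in negative feedback cultures 1 and 2, and from 4.31 to 8.57 CPM in the other 5. The label of the cell line could therefore not be checked further. The part of Pdgfra in the results was not tested, and for the share of short targets a fit with that share as a covariate is given beside the results. That share differs between the sets of cultures, so the fit cannot tell the share and the condition apart.

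**Figure D1:**
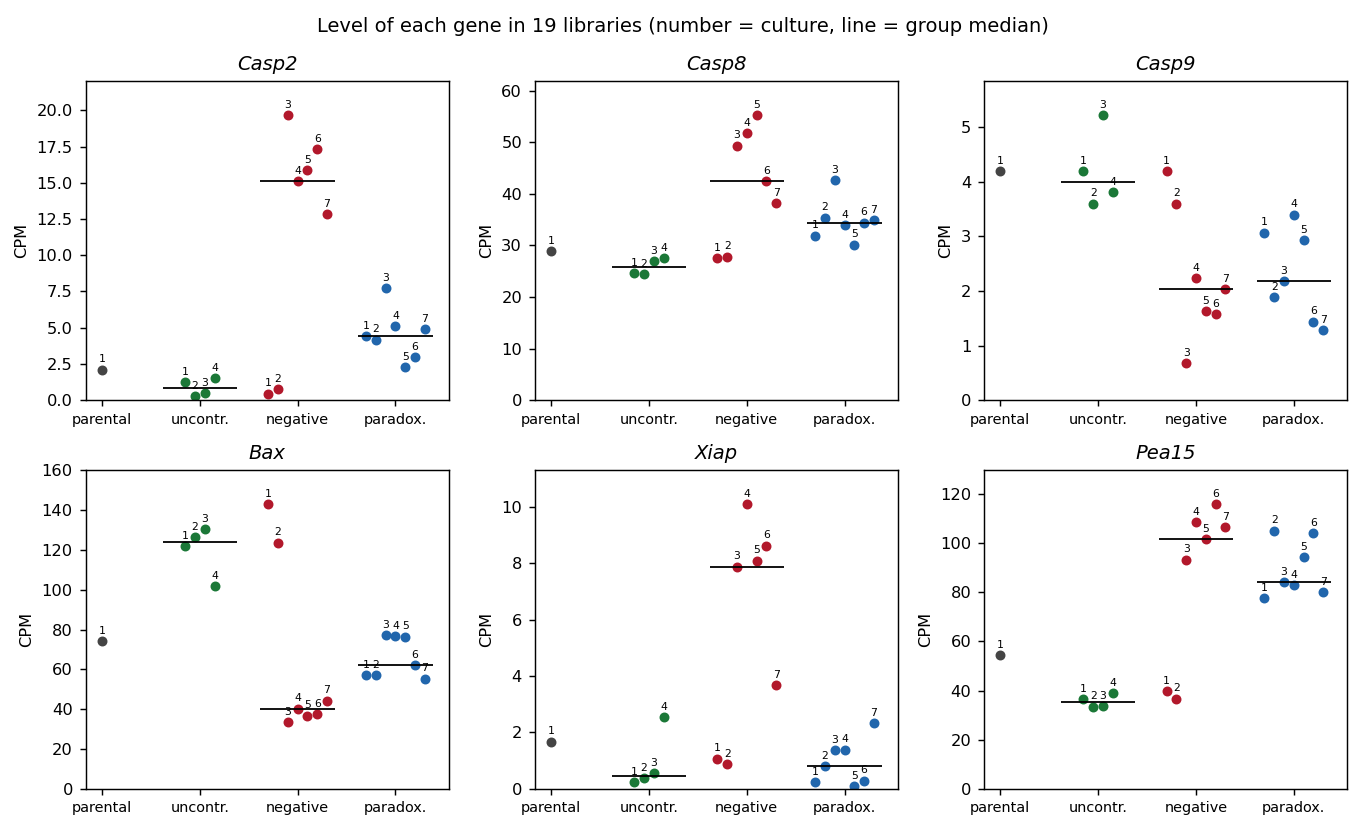
CPM of each gene (linear axes from 0) in the parental library and in the uncontrolled, negative feedback and paradoxical feedback cultures, where each point is 1 library, its number is the culture and lines are group medians. Negative feedback cultures 1 and 2 sit with or near the uncontrolled cultures, and cultures 3 to 7 lie apart from them in all 6 panels.

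Casp2 had the largest ratio of highest to lowest CPM of the initiator caspases. The uncontrolled cultures 1 to 4 were at 1.23, 0.284, 0.475 and 1.52 CPM, from only 3 to 18 counts. Negative feedback cultures 1 and 2 were as low, at 0.446 and 0.779 CPM, and cultures 3 to 7 were at 19.7, 15.1, 15.9, 17.3 and 12.9 CPM. Paradoxical feedback gave 2.25 CPM at the lowest, 4.44 CPM at the median and 7.71 CPM at the highest, and the parental library was at 2.10 CPM. All 7 paradoxical feedback cultures thus lay above all 4 uncontrolled ones and below negative feedback cultures 3 to 7. The median of those 5 cultures was 18.6 times the uncontrolled median, and that of paradoxical feedback 5.20 times. Counting error is large at the low end, since the 3 counts of uncontrolled culture 2 have an exact Poisson interval at 95% from 0.619 to 8.77 counts. Such an interval covers counting error alone, as reads that carry no molecular identifier may copy 1 molecule.

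Casp8, per transcript length the highest of the 3 caspases in every library, had a narrow spread in uncontrolled cultures. Uncontrolled cultures 1 to 4 were at 24.7, 24.5, 26.9 and 27.5 CPM. The negative feedback cultures ran from 27.5 to 55.2 CPM with a median of 42.5 CPM, cultures 1 and 2 at 27.5 and 27.8 CPM and cultures 3 to 7 at 38.2 CPM or more. Under paradoxical feedback the lowest, median and highest values were 30.2, 34.4 and 42.6 CPM, and the parental library was at 28.9 CPM. Neither feedback condition overlapped with the uncontrolled cultures in CPM, although negative feedback culture 1, at 27.49 CPM, and uncontrolled culture 4, at 27.48 CPM, were all but equal. On the TPM scale, which divides by transcript length and scales each library to a common total, both conditions did overlap with the uncontrolled range of 17.5 to 21.7 TPM, with lowest values of 18.5 TPM under negative and 19.0 TPM under paradoxical feedback.

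The values of Casp9 lay in the opposite direction. The uncontrolled cultures 1 to 4 were at 4.19, 3.60, 5.22 and 3.80 CPM, and the parental library at 4.20 CPM. Negative feedback cultures 1 and 2, at 4.20 and 3.60 CPM, lay at the same level, and cultures 3 to 7 ran from 0.678 to 2.24 CPM. Paradoxical feedback ran from 1.28 to 3.40 CPM with a median of 2.18 CPM, below every uncontrolled culture in CPM but not in TPM, where its highest value of 3.01 exceeded the lowest uncontrolled value of 2.70. The largest count of this target in any library was 66.5, divided reads included.

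Bax, the pore-forming protein of the mitochondrial route, had the highest level of the 6 per transcript length in uncontrolled cultures. Those cultures were at 121.9, 126.5, 130.5 and 101.9 CPM, and negative feedback cultures 1 and 2 at 143.2 and 123.7 CPM. Cultures 3 to 7 were at 33.5, 40.3, 36.8, 37.5 and 44.4 CPM, so that their median was 0.302 of the uncontrolled one. Under paradoxical feedback Bax lay at 55.3 CPM at the lowest, 62.3 CPM at the median and 77.3 CPM at the highest, with no overlap with uncontrolled cultures, and the parental library, at 74.2 CPM, fell in that range. The Bax target is 821 nt long, close to the short class whose share of counts is given above, and all other targets of the 6 are 1450 nt or longer.

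Xiap, the caspase inhibitor, had its 5 highest values in negative feedback cultures 3 to 7. There it was at 7.88, 10.1, 8.10, 8.63 and 3.68 CPM, against 1.07 and 0.876 CPM in cultures 1 and 2. The uncontrolled cultures were at 0.247, 0.379, 0.554 and 2.54 CPM, and paradoxical feedback ran from 0.0979 to 2.33 CPM with a median of 0.819 CPM. Those latter ranges overlapped widely, and the lowest value rests on 1 count, with an exact Poisson interval at 95% of 0.0253 to 5.57 counts. The parental library was at 1.68 CPM.

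Pea15, the inhibitor of caspase-8 recruitment, separated the paradoxical feedback cultures from the uncontrolled ones most clearly. Uncontrolled cultures 1 to 4 were at 36.6, 33.5, 33.7 and 38.9 CPM. All 7 paradoxical feedback cultures lay well above them, from 77.7 to 105.1 CPM with a median of 84.2 CPM. Negative feedback cultures 1 and 2 stayed at 39.8 and 36.7 CPM, and cultures 3 to 7 reached 93.3 to 116.0 CPM. With 54.6 CPM the parental library stood between the uncontrolled and the paradoxical feedback cultures. Pea15 kept this separation in TPM, at 24.6 to 31.5 TPM in uncontrolled and 60.3 to 90.0 TPM in paradoxical feedback cultures.

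Per transcript length the 6 genes kept much of their order. In TPM the order was Bax, Pea15, Casp8 in all 4 uncontrolled cultures, in the parental library, in all 7 paradoxical feedback cultures and in negative feedback cultures 1, 2 and 7, while in negative feedback cultures 3 to 6 Pea15 stood above Bax. Neighbours at the top did not overlap in uncontrolled cultures, with Bax at 216.9 to 254.9 TPM, Pea15 at 24.6 to 31.5 TPM and Casp8 at 17.5 to 21.7 TPM. At the bottom, Casp9 was the highest of the remaining 3 in every uncontrolled culture, at 2.70 to 3.92 TPM, and Casp2 and Xiap did not differ beyond their spread, at 0.249 to 1.47 and 0.216 to 2.26 TPM. In negative feedback cultures 3 to 7 Casp2 and Xiap were both above Casp9, which was the lowest there. Under paradoxical feedback Casp2 was above Casp9 in 6 of 7 cultures.

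**Figure D2:**
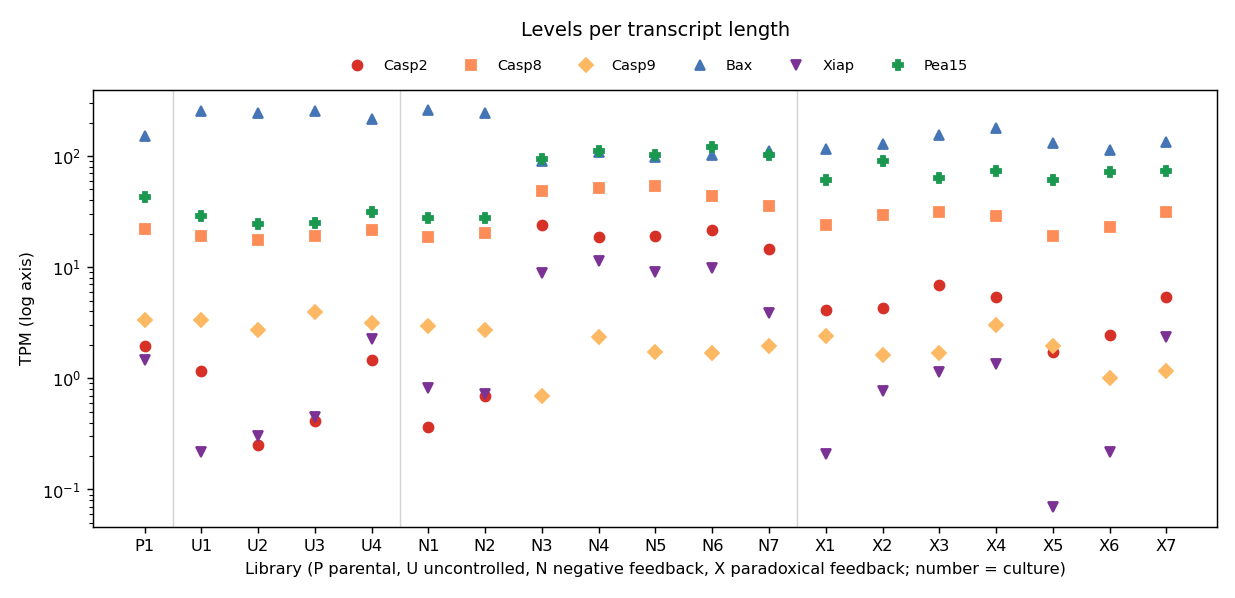
TPM (log axis) of the 6 genes in each of the 19 libraries, grouped by culture condition. Bax is the highest symbol in 15 libraries and Pea15 in negative feedback cultures 3 to 6, and Casp2 and Xiap move from below Casp9 in uncontrolled cultures to above it in negative feedback cultures 3 to 7.

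The opposite courses of Bax and Pea15 were seen within single libraries, where a ratio does not depend on how libraries are scaled to each other. The ratio of Bax to Pea15 in TPM was 8.75, 9.93, 10.2 and 6.88 in uncontrolled cultures 1 to 4, and 9.45 and 8.85 in negative feedback cultures 1 and 2. It was 0.849 to 1.09 in negative feedback cultures 3 to 7 and 1.43 to 2.43 under paradoxical feedback, with 3.57 in the parental library. No paradoxical feedback culture came near the uncontrolled range. Within the caspases, Casp2 relative to Casp8 was at 0.0142 to 0.0678 in uncontrolled, 0.0915 to 0.222 in paradoxical feedback and 0.352 to 0.500 in negative feedback cultures 3 to 7, without overlap among these sets. Negative feedback cultures 1 and 2, at 0.0199 and 0.0343, lay in the uncontrolled range, and the parental library was at 0.0890. These ratios were not tested.

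The share of counts on short targets moved with the ratio of Bax to Pea15, and the libraries fell into separate sets, so no correlation is given. Paradoxical feedback culture 5 had 12.4% of its counts on short targets, inside the uncontrolled range, and a ratio of 2.13. The part of the short-target share in the ratio was not tested. In that culture Pea15 was at 94.4 CPM and Bax at 76.5 CPM, like the other paradoxical feedback cultures, whereas Casp2 at 2.25 CPM and Casp8 at 30.2 CPM were the lowest of the 7.

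**Figure D3:**
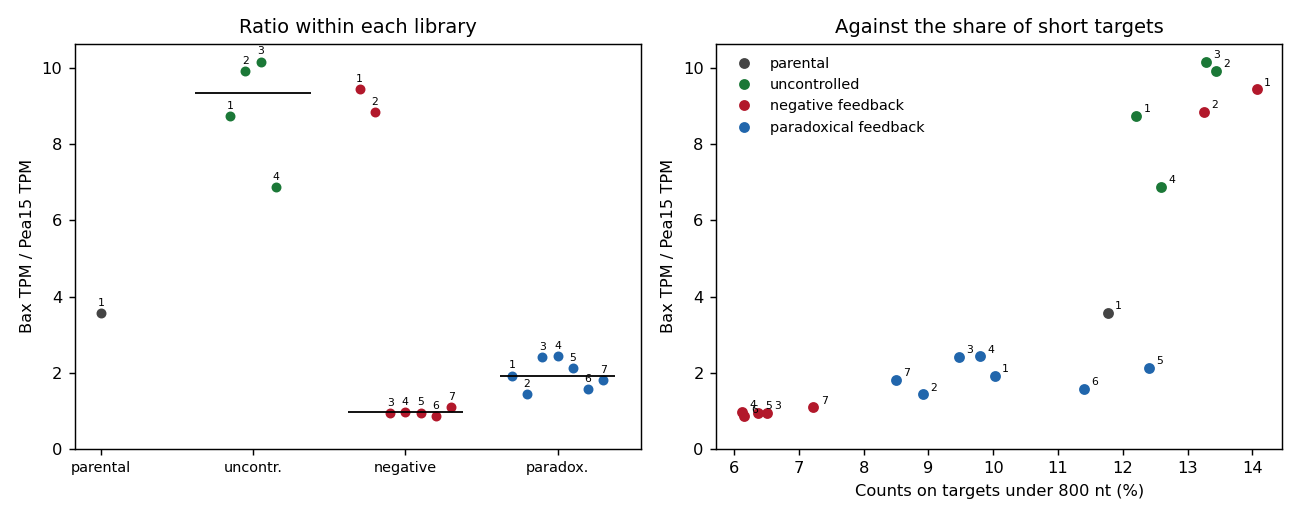
Left, ratio of Bax to Pea15 in TPM in each library by culture condition, with numbers for cultures and lines for group medians; right, the same ratio against the percent of counts on targets under 800 nt. The uncontrolled cultures lie at 6.88 to 10.2 and the paradoxical feedback cultures at 1.43 to 2.43, and paradoxical feedback culture 5 has a short-target share of 12.4% and a ratio of 2.13.

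Negative feedback, by design a limit on the population through the cells' own signal, was first set against uncontrolled growth. The labels do not say whether the circuit limited these cultures at harvest. Casp2, Casp8 and Pea15 rose, and the other members did not pass. In the edgeR quasi-likelihood fit over all 28555 tested targets, with Benjamini-Hochberg adjustment over all of them, 3 of 6 members were called higher and 0 lower at an adjusted p under 0.05. In the same comparison 9.76% of all tested targets were called, 8.65% as higher and 1.11% as lower, and among the 284 tested targets with a protein-coding symbol the share was 28.5% and the median log2 fold change 0.44 (0.041 over all tested targets). The split over all targets depended on the method, with 2470 called higher and 317 lower here, 1637 higher and 3402 lower by limma-voom, and 5844 higher and 5616 lower by edgeR without negative feedback cultures 1 and 2. The log2 fold change was 3.72 ± 0.92 for Casp2 (standard error of the fit, adjusted p = 0.0250), 1.27 ± 0.28 for Pea15 (0.0236) and 0.69 ± 0.19 for Casp8 (0.0342). Xiap was at 2.62 ± 0.97 (adjusted p = 0.0881) and at 3.84, still not called, without uncontrolled culture 4, Bax at -0.87 ± 0.36 (0.116) and Casp9 at -0.88 ± 0.45 (0.184).

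Those calls rested on negative feedback cultures 3 to 7. Without them none of the 6 was called, and the log2 fold changes were -0.51 for Casp2, 0.099 for Casp8, -0.11 for Casp9, 0.15 for Bax, 0.071 for Xiap and 0.10 for Pea15. Without negative feedback cultures 1 and 2, which resemble the uncontrolled ones, all 6 were called, Bax at -1.66 ± 0.13 and Pea15 at 1.54 ± 0.11. That fit called 11460 of 28401 tested targets, and the fit without cultures 3 to 7 called 13 of 27303. Which cultures stand apart was known from earlier results of these data, so these fits describe the libraries left in and are no independent test. All 3 calls were also lost without any 1 of uncontrolled cultures 1 to 4, that of Casp8 without any 1 of negative feedback cultures 3 to 7 or with scaling by library totals, and that of Casp2 with limma-voom. Fitting only the 2 groups compared also ended all 3 calls, with Casp2 at 3.70, Pea15 at 1.25 and Casp8 at 0.67. They were lost as well with the share of short targets as a covariate, where Casp2 was at 0.25 ± 0.47, Casp8 at 0.20 ± 0.14 and Pea15 at 0.44 ± 0.20. Other settings added calls: Bax was called lower with limma-voom (-1.15), with limma on log2(TPM + 1) (-0.87) and by edgeR without negative feedback culture 1 (-1.19) or 2 (-1.11). Xiap was called higher by DESeq2 (2.66), with limma on log2(TPM + 1) (1.79) and by edgeR without negative feedback culture 1 or 2 (both 2.80). Of the 6, only Casp8 had CPM ranges that did not overlap between these groups, as did 1.67% of all tested targets as higher and 2.2% as lower.

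**Figure D4:**
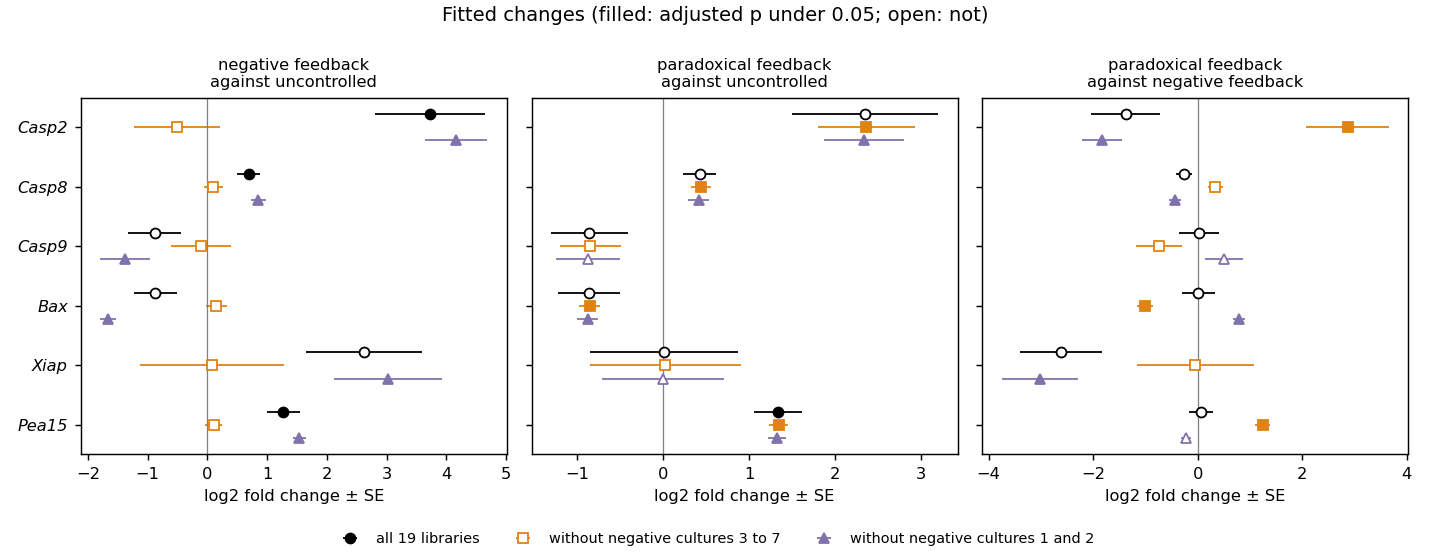
Log2 fold change ± standard error of the edgeR fit for each gene (linear axes that differ between panels) in the 3 comparisons, from all 19 libraries (circles), without negative feedback cultures 3 to 7 (squares) and without negative feedback cultures 1 and 2 (triangles), filled where the adjusted p is under 0.05. Values against uncontrolled growth under paradoxical feedback hardly move between the fits, whereas both comparisons that use negative feedback change size or direction with the cultures left in.

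The same comparison was made for paradoxical feedback, in whose design the signal is wired to proliferation as well as to killing. Against uncontrolled cultures Pea15 rose, by 1.33 ± 0.28 on the log2 scale (edgeR adjusted p = 0.0168), and was the only member called, 1 of 6 against 6.43% of all tested targets (4.93% higher, 1.5% lower) and 20.8% of those with a protein-coding symbol. Of all targets called, 1408 were higher and 427 lower, whereas 905 were higher and 521 lower with scaling by the library total alone, and 1082 higher and 1507 lower by limma-voom. Casp2 was at 2.34 ± 0.85 (adjusted p = 0.0987), Casp8 at 0.43 ± 0.19 (0.169), Bax at -0.86 ± 0.36 (0.144), Casp9 at -0.86 ± 0.45 (0.232) and Xiap at 0.0069 ± 0.86 (1). Pea15 was called in 28 of 31 alternative settings, whose adjusted p ran from 2.03e-06 to 0.133. Its call was lost without uncontrolled culture 1 or 2 and held with the short-target share as a covariate, at 0.90 ± 0.18. With that covariate the other 5 were not called, Casp2 being at 0.70 ± 0.39, Casp8 at 0.14 ± 0.12, Bax at -0.22 ± 0.15, Casp9 at -0.40 ± 0.40 and Xiap at -1.57 ± 0.70.

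Although 1 member was called, 5 of 6 had CPM ranges that did not overlap between the paradoxical feedback and uncontrolled cultures: Casp2, Casp8 and Pea15 all above, Casp9 and Bax all below. Over all tested targets 7.94% lay wholly above and 8.29% wholly below. In TPM the number was 3 of 6, namely Casp2, Pea15 and Bax, and the share over all tested targets was not computed on that scale. The main fit shares its estimate of the spread with the divided negative feedback cultures. When only the 2 groups compared were fitted, 4 members were called, and the part of the shared spread in this was not tested. Those were Pea15 (1.32 ± 0.11), Bax (-0.87 ± 0.13), Casp2 (2.34 ± 0.57) and Casp8 (0.42 ± 0.12), all by edgeR, and Casp9 and Xiap did not pass. The same 4 were called without negative feedback cultures 3 to 7, and without cultures 1 and 2. All 3 fits use the same paradoxical feedback and uncontrolled libraries, and those sets were known from earlier results of these data. The fits are thus no independent tests. Over all tested targets these 3 fits called 4956 (of targets filtered on the 2 groups alone), 4926 of 27303 and 5675 of 28401, in that order. The main fit called 1835 of 28555. Across 31 alternative settings Casp2 was called in 5, Casp8 and Bax in 3 each and Casp9 in 0. In the 19 of them that left out a single library, Casp2 was called in 1 and Casp8 and Bax in 0.

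The feedback conditions were then set against each other. None of the 6 members was called by edgeR, as against 0.27% of all tested targets (0.165% higher, 0.105% lower). The unadjusted p was under 0.05 for 1 member, Xiap, and for 5033 of all 28555 tested targets. DESeq2, which called 1772 targets in all, called the same 1 as lower under paradoxical feedback, and limma-voom called 0. Xiap was at -2.61 ± 0.78 (edgeR adjusted p = 0.113), Casp2 at -1.38 ± 0.66 (0.289) and Casp8 at -0.26 ± 0.16 (0.445), while Casp9, Bax and Pea15 lay at 0.021, 0.010 and 0.061 with standard errors of 0.39, 0.31 and 0.23. The ranges of all 6 members overlapped between these conditions. Those of 0.399% of all tested targets lay wholly above and of 0.165% wholly below.

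The values of Bax near 0 joined negative feedback cultures 1 and 2, which lay above all paradoxical feedback cultures, with cultures 3 to 7, which lay below them. Without negative feedback cultures 3 to 7, paradoxical feedback was higher for Casp2 (2.87 ± 0.79) and Pea15 (1.24 ± 0.15) and lower for Bax (-1.01 ± 0.15), all called by edgeR. Without cultures 1 and 2 it was instead lower for Casp2 (-1.84 ± 0.38), Casp8 (-0.44 ± 0.11) and Xiap (-3.02 ± 0.73) and higher for Bax (0.78 ± 0.12), again all called. As above, these sets were known from earlier results of these data, so the calls describe the libraries left in and are no independent test. The directions of Casp2, Casp8, Casp9, Bax and Pea15 depended on which negative feedback cultures were kept. Casp8 was at 0.34 without cultures 3 to 7 and Pea15 at -0.22 without cultures 1 and 2, neither called. Casp9 was at -0.74 without cultures 3 to 7, not called, against 0.021 from all libraries. Over all tested targets the fit without cultures 3 to 7 called 2454 of 27303, and that without cultures 1 and 2 called 5937 of 28401.

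The other genes of the apoptosis pathway were largely out of reach. Of 69 symbols listed by role, 11 matched a target, the 6 members and 5 more, of which 4 were tested. Parp1, a DNA repair enzyme that executioner caspases cleave, was at 59.7 to 73.9 CPM in uncontrolled cultures, 71.3 and 79.9 CPM in negative feedback cultures 1 and 2 and 196 to 212 CPM in the other 5. Its log2 fold change under negative feedback against uncontrolled growth was 1.31 ± 0.28 (edgeR adjusted p = 0.0236), 0.17 without cultures 3 to 7 and 0.39 ± 0.14, no longer called, with the short-target covariate. Under paradoxical feedback it ran from 114 to 193 CPM and was at 1.25 ± 0.28 on the log2 scale (edgeR adjusted p = 0.0206), and at 0.73 ± 0.13, still called, with that covariate. Each of these calls of Parp1 was lost without any 1 of the uncontrolled cultures.

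Bcl2l1, a survival protein of the BCL-2 family with shared reads, and Bak1, a relative of Bax, are named here after their values were seen. Bcl2l1 was at 0 in the parental library, in every uncontrolled and paradoxical feedback culture and in negative feedback cultures 1 and 2, the other 5 being at 0.278 to 2.03 CPM, and Bak1 was at 0 in all 19 libraries. A target at 0 does not show that its gene is silent, since counts were not summed over similar transcripts.

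Among other symbols, the patterns most like those of the members were found by Pearson correlation of log2 CPM over the 19 libraries, given as a description because the libraries share a division into sets. The search covered 241 symbols for each member, or 242 for Xiap. Casp2 and Casp8 had the same nearest symbol, Noc3l, at r of 0.98 and 0.96, and these were 0.95 and 0.95 over the 14 libraries without negative feedback cultures 3 to 7. Next came B4galt1 for Casp2 (0.97) and Tsn and Pdha1 for Casp8 (both 0.95). For Bax they were Ndufa1 (0.97), Rpl13 (0.96) and Selenos (0.93), and for Casp9, whose likeness was lower, Gmds (0.83), Bax itself (0.82) and B3gat3 (0.82). Pea15 was nearest to Sdc1, Map2k1 and Ercc3 (all 0.96). Xiap was nearest to Ahr (0.92), Manea (0.88) and St8sia4 (0.86), and without cultures 3 to 7 these values were 0.74, 0.54 and 0.48.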

How the data were processed

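Polyadenylated RNA of 19 libraries was quantified by the authors with Trim Galore and kallisto, per the submitters' processing notes. No build, annotation or tool version was found in these sources, so no coordinates are printed. Per the file headers, the deposited tables give, for each of 46718 transcript targets, 2 lengths, 1 estimated count and 1 TPM value. In the deposited TPM, counts are divided by effective length and brought to 1 sum per library. Accessions were matched, without version, to a RefSeq gene table of assembly CriGri-PICRH-1.0, used for names only. It matched 528 targets, 334 of them protein coding.

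Estimated counts were rounded, filtered with filterByExpr (28555 targets left), scaled by TMM and modelled in R 4.3.3 by edgeR 4.0.16 (quasi-likelihood test, 1 coefficient per group, all 19 libraries, Benjamini-Hochberg adjustment over all tested targets, threshold 0.05). Standard errors are the fold change divided by the root of the F statistic. Alternatives used limma 3.58.1 and DESeq2 1.42.0. The edgeR, limma-voom and DESeq2 fits were run on simulated data for negative feedback against uncontrolled growth. The simulation had a single spread setting for all targets and no division within a group, so it does not cover the divided cultures here. The parental library was compared as a value, without a test. Log2 CPM for likeness used a prior count of 2, and log2 TPM a pseudocount of 1. Likeness covered tested protein-coding symbols whose mean log2 CPM reached 1.

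The members and lists were chosen with earlier results of these data known. The rule for named genes covers all members, called members of the pathway list (or its 3 highest) and the 3 symbols most like each member. No pair of cultures within a group agreed within sampling noise (chi-square per target of at least 17.6 over 48 pairs). Deviations from the group mean correlated above 0.1 in 1 of 15 same-numbered pairs of different groups (median r 0.032). Among differently numbered pairs they did so in 6 of 90 (median r -0.0037). The division within negative feedback enters these deviations, so the check cannot show that numbers do not pair cultures. Some genes of the pathway list and of the likeness search are not reported here.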

Additional observations from a re-analysis of the deposited data

Results flagged for a closer look

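Each of the 6 genes was checked in each of the 3 long-term groups for a culture far from the others by Dixon's test at the 95% level, 18 checks in all, of which chance flags about 1 in 20. Casp8 in paradoxical feedback culture 3, at 42.6 CPM, stood above the next culture at 35.4 CPM, a gap of 0.579 of the range. Xiap in uncontrolled culture 4, at 2.54 CPM, stood above the next at 0.554 CPM, a gap of 0.866 of the range, from 30 counts against 7. Paradoxical feedback culture 3 was also the highest of its group for Casp2.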

How the results depend on the processing

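Results are log2 fold changes or counts of calls, and the cause of a change between settings was not tested. For negative feedback against uncontrolled growth (2787 targets and 3 members called), DESeq2 called 6374 targets, limma-voom 5039 and limma on log2(TPM + 1) 6811, the last with 5 members. Fitting only the groups compared gave 10 targets, the short-target covariate 6, and leaving out negative feedback cultures 3 to 7 gave 13, each with 0 members by edgeR, and without cultures 1 and 2 there were 11460 with 6. Without cultures 3 to 7 Casp2 turned to -0.51 and Bax to 0.15. Leaving out single libraries gave 7 to 6938 targets and 0 to 5 members, 0 without uncontrolled culture 1, 2, 3 or 4 and 5 without negative feedback culture 1 or 2.

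For paradoxical feedback against uncontrolled growth (1835 and 1), the stricter filter called 2977 targets, DESeq2 4773 with 2 members, only the groups compared 4956 with 4, the covariate 1145, and leaving out negative feedback cultures 3 to 7 or 1 and 2 gave 4926 or 5675, each with 4. Single libraries gave 127 to 3204 targets and 0 to 2 members, 0 without uncontrolled culture 1 or 2 and 2 without negative feedback culture 1. Xiap turned to -0.024 with DESeq2 size factors, -0.081 with library totals, -0.023 with DESeq2 and -1.57 with the covariate, and ran from -0.40 to 1.22 without single libraries.

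For paradoxical against negative feedback (77 and 0), the counts were 11 with DESeq2 size factors, 42 with library totals, 2 with no filter, 223 with the stricter filter, 1772 with DESeq2 (1 member), 297 with limma-voom, 31 with log2(TPM + 1), 0 with only the groups compared, 697 with the covariate, 2454 without cultures 3 to 7 (3 members) and 5937 without cultures 1 and 2 (4 members). Single libraries gave 0 to 989 targets. Values near 0 changed sign. Casp9 was at -0.038 with DESeq2 size factors, -0.026 with library totals, -0.033 with DESeq2, -0.079 with log2(TPM + 1), -0.00091 with only the groups compared, -0.12 with the covariate and -0.74 without cultures 3 to 7. Bax was at -0.049, -0.047 and -0.048 under the first 3 of these, -0.0072 with the stricter filter, -0.023 with only the groups compared, -0.072 with the covariate and -1.01 without cultures 3 to 7. Pea15 was at -0.0048 with DESeq2 size factors, -0.0050 with DESeq2, -0.049 with log2(TPM + 1) and -0.22 without cultures 1 and 2. Casp2 and Casp8 turned to 2.87 and 0.34 without cultures 3 to 7, and Casp2 to 0.45 with the covariate. Parp1 was at 0.023 with limma-voom, 0.34 with the covariate and 1.09 without cultures 3 to 7. Without single libraries Casp9 ran from -0.14 to 0.24, Bax from -0.10 to 0.33, Pea15 from -0.068 to 0.15 and Parp1 from -0.19 to 0.0070.

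The replicate number was also fitted as a block, which the pairing check can neither back nor exclude. With it edgeR called 4, 3 and 0 targets in the 3 comparisons and 0 members, and Parp1 was at 0.016 in the last. Under that block the adjusted p of Casp2, Casp8 and Pea15 for negative feedback against uncontrolled growth was 0.205 each. Depth limits Xiap and Casp2, which had as few as 1 and 3 counts. Xiap has no value under the stricter filter.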
